A study of Mus musculus with 15 samples.

Results

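Oocytes matured in culture were compared between peripubertal (d26) and adult (7-8 wk) female mice, using 3 arrays for d26 and 2 arrays for adults, 5 of the 15 arrays in the series. The members are simply the arrays whose labels give this age and in vitro maturation; no measured value chose them. All mice were B6D2F1 hybrids primed at both ages with PMSG (pregnant mare serum gonadotropin), which makes follicles grow. Germinal vesicle oocytes, which are still arrested with an intact nucleus, were taken from the ovaries 48 h later and held in maturation medium over 16 h until they reached MII (metaphase II), when an egg can be fertilized. Adhering cumulus cells were stripped with hyaluronidase, and each array received amplified cRNA from the poly(A) RNA of 1 pool of 150 oocytes. Beside these arrays stand 2 of d26 and 3 of adult oocytes matured in the animal, where human chorionic gonadotropin (hCG) followed the PMSG, and 3 of in vitro matured oocytes from d20 (prepubertal) mice. The 2 arrays of adult germinal vesicle oocytes, collected after PMSG and not matured, enter no comparison here, but they share the normalization, the filter on level and the estimate of spread. Nothing in the labels ties a pool to particular animals. The p-values here therefore set a difference only against the spread between pools, estimated over all 6 groups of the series. That spread may be technical.

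A growing oocyte builds up the messenger RNA that it will use through maturation and the first divisions after fertilization. Transcription stops before maturation begins, and from then on stored messages are polyadenylated, translated or degraded. Age at collection can therefore show in an MII oocyte through what was stored during growth and through what was degraded or retained during maturation, and an array signal does not separate these. Poly(A) selection adds a limit, since a message that only changes its tail can be captured more or less well.

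The RNA of all 5 pools had the profile of oocytes. Of 16 oocyte marker genes 15 had a probe set, and all 15 were tested. Gdf9, the growth factor by which the oocyte directs its cumulus cells, read 13.39, 12.34 and 13.31 on the log2 scale in the d26 arrays and 13.37 and 12.07 in the adult arrays. Oosp1, an oocyte-secreted protein, read 13.26, 12.81 and 13.14 at d26 and 13.15 and 12.78 in adults. For both genes the ranges of the ages overlapped. The age difference, d26 minus adult with its standard error (SE), was 0.29 ± 0.35 for Gdf9 and 0.11 ± 0.18 for Oosp1. No marker passed the test. Of the 15, 2 were higher without overlap between the ages, Padi6 and Kit, and 1 was lower, Nlrp14. These are 13.3% and 6.67%, against 6.98% and 9.01% over all genes. The summed signal of the oocyte markers, on the log2 scale, lay between 15.4 and 15.8 at d26 and between 15.2 and 15.7 in adults.

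**Figure D1:**
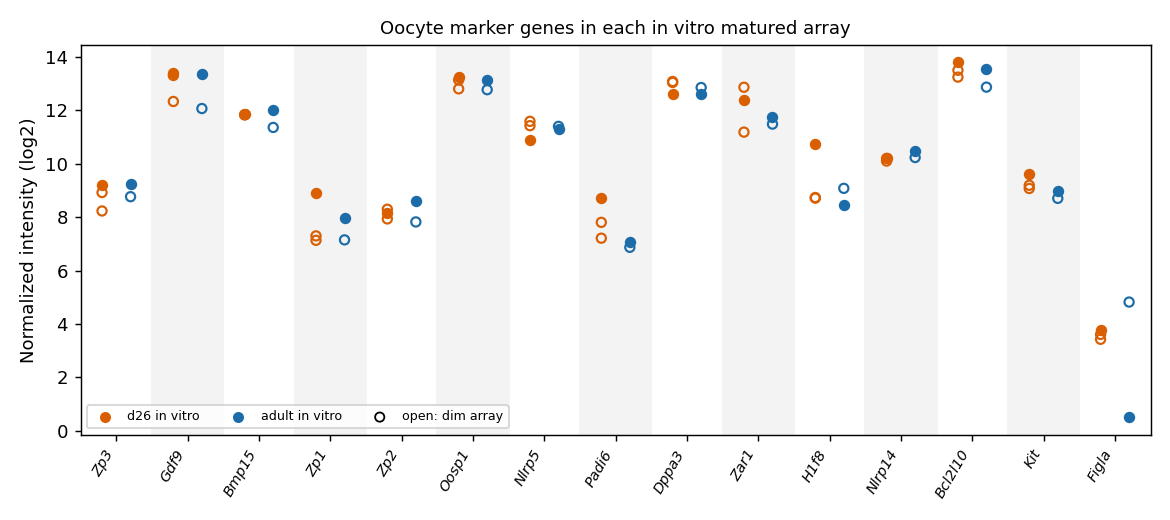
Normalized log2 intensity of 15 oocyte marker genes in the 3 d26 and 2 adult in vitro matured arrays; each point is 1 array and open points are dim arrays. Most genes sit at the same height at both ages, and Figla is the one with an adult array near 0.5 and the other at 4.82.

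Markers of other cells had a lower summed signal than the oocyte markers at both ages. Of 22 cumulus and granulosa markers 19 had a probe set and 14 reached the tested level; their summed signal was 9.63 to 10.3 at d26 and 9.70 to 10.2 in adults, and among the 14 the median level was 4.47 at d26 and 4.02 in adults. Amh, Inhba, Ereg, Vcan and Hsd3b1 were the 5 under the tested level. Among the 14 tested, the differences ran from -2.93 to 2.08. Of these, 3 were higher and 2 lower without overlap between the ages (21.4% and 14.3%, against 6.98% and 9.01% over all genes). Theca and stroma markers summed to 5.53 to 7.37 at d26 and 7.20 to 7.43 in adults, with 6 of 10 tested, a median difference of -1.01 and none called. Leukocyte and red cell markers summed to 6.89 to 7.06 and 6.79 to 6.97, with 4 of 13 tested and a median difference of -0.16. Oviduct epithelium markers summed to 6.26 to 7.31 and 5.70 to 7.07, with 4 of 9 tested and a median difference of 0.17. None of these lists held a called gene, and their part in any age difference was not tested.

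The arrays were uneven in brightness, and this touches every result that follows. Among the d26 arrays, the first had 5675 probe sets above a deposited intensity of 200, while the second had 2615 and the third 3042. Among the adult arrays, the first had 4882 and the second 2753. Arrays with fewer than 4000 are called dim here; the only other dim array of the series is the first adult in vivo array, with 3035. The 3' to 5' signal ratio of the Gapdh control was 12.6, 16.5 and 26.8 at d26 and 20.6 and 2.27 in adults, on 5' signals that were themselves low.

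Array profiles did not group by age. Over the 2978 probe sets with a mean level of at least 9, the most alike pair among the 5 was the second d26 array and the second adult array, both dim (r = 0.965). The first and second d26 arrays had r = 0.729, below the first d26 and first adult arrays at r = 0.914. Over all tested probe sets, pairs within an age had r from 0.807 to 0.882 and pairs between ages from 0.810 to 0.891. These correlations run across probe sets, which are not independent, and are given as a description.

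A single probe set separated the ages at an adjusted p below 0.05, and it carries no gene symbol. Of 22519 probe sets tested by limma with Benjamini-Hochberg adjustment, 1 was higher at d26 (0.00444%) and 0 were lower (0%). At an unadjusted p below 0.05, 896 were higher and 758 lower, 7.34% of those tested. The called probe set, 1442383_at, read 4.66, 4.11 and 3.64 in the d26 arrays and -0.31 and -0.64 in the adult arrays. The difference was 4.61 ± 0.59 (adjusted p = 0.0319, limma). The deposited intensities behind it were 28.03, 8.507 and 5.186 at d26 and 0.8215 and 0.3969 in adults, where the medians of the arrays were 11.73 and 6.216. The medians of the d26 arrays were 14.37, 5.975 and 5.084, so the signal on the dim d26 arrays was low too. The adult signal is very faint, so the size of the difference is not fixed by these values.

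The adult in vitro pools were the ones that stood apart for this probe set. It averaged 4.96 in d20 in vitro oocytes, 4.83 in d26 in vivo oocytes and 4.56 in adult in vivo oocytes, so each of the other MII groups was near the d26 level. The adult in vitro arrays took part in the call, and the probe set passed the filter on level through the other groups. This order is therefore a description. The probe set's in vivo age difference was 0.28 (adjusted p = 1.00, limma). The in vitro difference exceeded it by 4.33, which did not pass (adjusted p = 0.548, limma interaction). The call is fragile: over 25 alternative settings in which the probe set was tested, the difference ran from 3.34 to 4.97 and 7 kept it past the threshold, with adjusted p from 0.000757 to 1.00 by limma. Leaving out either germinal vesicle array, for example, ended the call, with the smallest adjusted p at 0.104 and 0.117.

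The number of calls depended on single arrays. Without the first adult array, 305 probe sets were called higher and 2 lower, with the dim second adult array left as the only adult pool. Without the second adult array, 1 was called higher and 0 lower. Without the dim second d26 array, 5 were called higher. Without the first or the third d26 array, 0 were called in either direction. Without the first adult in vivo array, 6 were called higher and 1 lower. Without the 4 dim arrays, 63 were called higher and 26 lower, by 1 d26 array against 1 adult array. Where an age is left with 1 array, that array is assumed to vary like those of the other groups.

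How small a difference could be measured depended on the signal. Of the tested probe sets, 10890 had a mean level between 3.07 and 5, where the median SE was 0.98 and 41.2% of the differences were 1 log2 unit or more in size. At a level between 7 and 9 the median SE was 0.43, and 5.02% were that large. At a level of 11 or more, in 906 probe sets, the median SE was 0.25 and 0.331% were that large. The 95% interval of the difference lay within 1 log2 unit of 0 for 15.7% of the 12028 genes tested, and for 77.2% of the probe sets at a level of 11 or more. At a level between 9 and 11 this share was 48.9%. The intervals thus mostly bound the age difference for the most abundant messages, and mostly do not for faint ones. The model behind them has no term for array brightness.

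**Figure D2:**
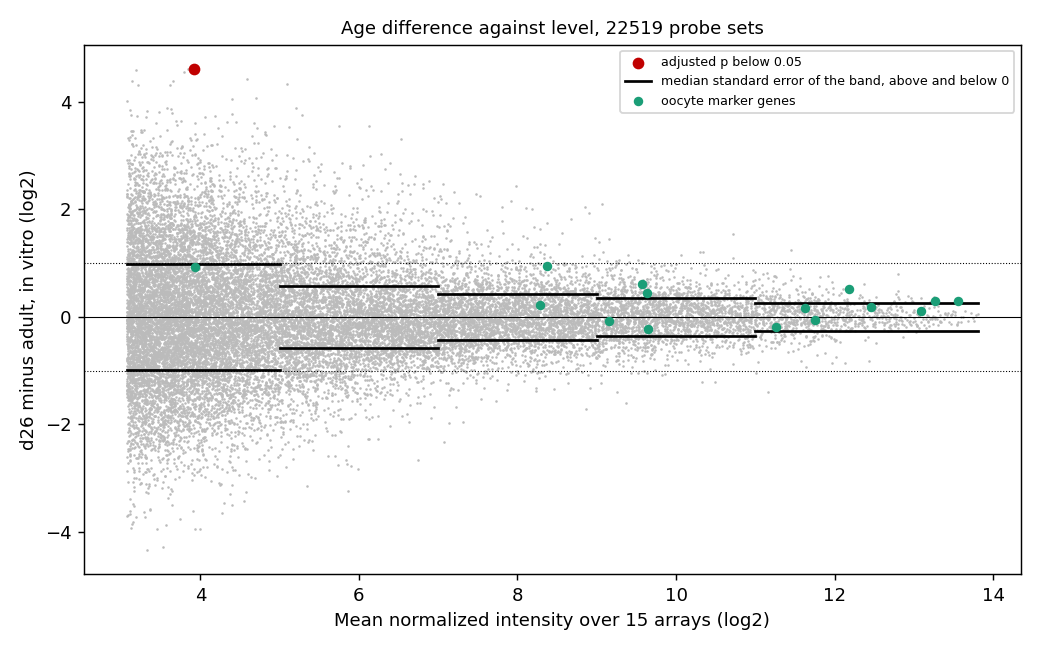
Difference d26 minus adult in vitro (log2) against mean normalized intensity over the 15 arrays, for 22519 probe sets (grey); black lines are the median SE of each level band above and below 0, and dotted lines mark 1 log2 unit. The cloud narrows from left to right, the called probe set (red) lies in its faint end and the oocyte markers (green) lie mostly in its bright end.

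A gene is represented below by its tested probe set with the highest mean. All 3 d26 arrays lay above both adult arrays for 840 of the 12028 genes (6.98%), and below both for 1084 (9.01%). With a difference of at least 1 log2 unit as well, 522 genes were higher and 563 lower. The median difference over genes was -0.02, and the range was -4.28 to 4.55. The genes described next are those of this kind with the smallest p, up to 12 in each direction. None passed the adjusted threshold (adjusted p from 0.155 to 0.338, limma), so they are candidates and their separation is the criterion that chose them.

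Among the 12 genes higher at d26, Wdtc1, which encodes a WD40 and TPR repeat protein linked to fat storage, read 5.80, 4.74 and 5.66 at d26 and 1.92 and 0.20 in adults, a difference of 4.34 ± 0.68 (adjusted p = 0.155, limma). Smc1b, the meiosis-specific cohesin subunit that holds sister chromatids together, read 4.48, 5.50 and 4.60 at d26 and 0.06 and 0.89 in adults, a difference of 4.38 ± 0.80. Nat10, the enzyme that acetylates cytidines in RNA, read 6.74, 5.97 and 5.83 at d26 and 3.71 and 3.92 in adults, a difference of 2.36 ± 0.43. For each of them the lowest d26 array stood more than 1 log2 unit above the higher adult array. Castor1, an arginine sensor upstream of mTORC1, read 7.79, 6.43 and 5.80 at d26 and 4.16 and 3.47 in adults. Mto1, which modifies mitochondrial transfer RNA, read 4.53, 3.73 and 5.44 at d26 and 2.32 and 0.70 in adults.

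The other 7 genes of this set were Myo7b, an unconventional myosin, with a difference of 3.24, Gm19600 with 2.93, Vps35l, a subunit of the retriever endosome-recycling complex, with 2.92, Mc1r, the melanocortin receptor, with 4.32, Hps1, which acts in the biogenesis of lysosome-related organelles, with 3.01, the long noncoding RNA Atxn7l1os2 with 3.17, and Cby3 with 3.16. In 10 of the 12 genes the adult mean was under 3.07, the level at which testing began, so the adult values are faint ones whose size is poorly fixed.

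For these 12 genes the adult in vitro group was the low one. All 3 adult in vivo arrays exceeded both adult in vitro arrays in 12 of 12 genes, and all 3 d20 arrays did so in 11. Nat10 averaged 5.99 in adult oocytes matured in vivo and 6.96 in d20 oocytes, against 3.82 in adult oocytes matured in vitro. Smc1b averaged 2.46 in adult oocytes matured in vivo, with its first array, a dim one, at 1.03. The genes were chosen for low adult in vitro arrays, which favours these orders, so the orders are a description. Their share over all genes was not measured. The 10 genes with an adult in vitro mean under 3.07 passed the filter on level through the other groups. The in vivo arrays shared the normalization, that filter and the estimate of spread, though not the contrast. On them the age difference was above 0 in 8 of 12, with a median of 0.08 and a range from -1.41 to 1.49. Over all tested genes 53.1% were above 0 there.

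Among the 12 genes lower at d26, Lpp had the most probe sets, all of them lower, and it was also lower in vivo. Lpp encodes a LIM-domain protein of focal adhesions. It read 5.11, 5.88 and 5.72 at d26 and 7.75 and 7.92 in adults, a difference of -2.26 ± 0.50 (adjusted p = 0.292, limma). All 8 Lpp probe sets were lower at d26 in mean; 2 besides the representative had an unadjusted p below 0.05, at -2.32 and -3.16. In vivo Lpp averaged 5.09 over the 2 d26 arrays, the higher at 5.18, and read 7.79, 6.07 and 7.37 in adults, with no overlap, a difference of -1.99 (unadjusted p = 0.0013, adjusted p = 0.887, limma). In d20 oocytes it averaged 5.42, near the d26 level.

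Nme2, a nucleoside diphosphate kinase, read 0.45, 0.88 and 0.58 at d26 and 3.38 and 5.17 in adults, a difference of -3.64 ± 0.66. It was also lower at d26 in vivo by -2.05 (unadjusted p = 0.0075, adjusted p = 1.00, limma). Scarb2, a lysosomal membrane receptor, read 2.10, 2.71 and 0.72 at d26 and 5.49 and 5.13 in adults. Its other probe set was also lower, at -1.59, and in vivo it differed by -1.32. Tmem164, a membrane protein, read 8.11, 7.90 and 7.31 at d26 and 9.71 and 9.26 in adults, a difference of -1.71 ± 0.43. In each of these genes every d26 array lay below both adult arrays. Mbnl1, a regulator of alternative splicing, read 4.03, 3.58 and 3.65 at d26 and 5.78 and 6.40 in adults.

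The remaining genes lower at d26 were Ackr3, an atypical chemokine receptor, at -3.00, Aqp12, an aquaporin, at -3.07, Nup133, a nuclear pore scaffold protein, at -3.95, Limd2 at -2.66, Fam47e at -4.28, Stpg3 at -3.25 and Gm1673 at -2.89. In 8 of the 12 the d26 mean was under 3.07, so these passed the filter on level through the other groups. For 11 of the 12 the d20 mean was above the d26 mean, and in 8 all 3 d20 arrays exceeded all 3 d26 arrays. The d26 arrays took part in choosing the genes, which favours this order. Its share over all genes was not measured. In vivo the age difference was below 0 in 9 of 12, with a median of -0.71, where 46.9% of all tested genes were below 0. The in vivo difference was -1.97 for Aqp12 and -1.99 for Stpg3, and it was 0.91 for Nup133, 1.75 for Fam47e and 1.31 for Gm1673. No probe set passed the in vivo test, where the smallest adjusted p was 0.390 by limma. For Limd2 both tested probe sets were lower at d26, at -2.66 and -0.20, while 2 probe sets with mean levels of 0.77 and 1.41, too faint to be tested, had the opposite direction.

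Other probe sets gave the named genes limited backing. Of the 24 genes 12 had another probe set, 31 in all, and 18 of the 31 had the direction of the representative. Of the 13 that were bright enough to be tested, 3 belonged to genes higher at d26, and 1 of these had the same direction, at 0.02 for Vps35l. The other 10 belonged to genes lower at d26, 6 of them to Lpp, and all 10 had the same direction; 2, both of Lpp, had an unadjusted p below 0.05.

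**Figure D3:**
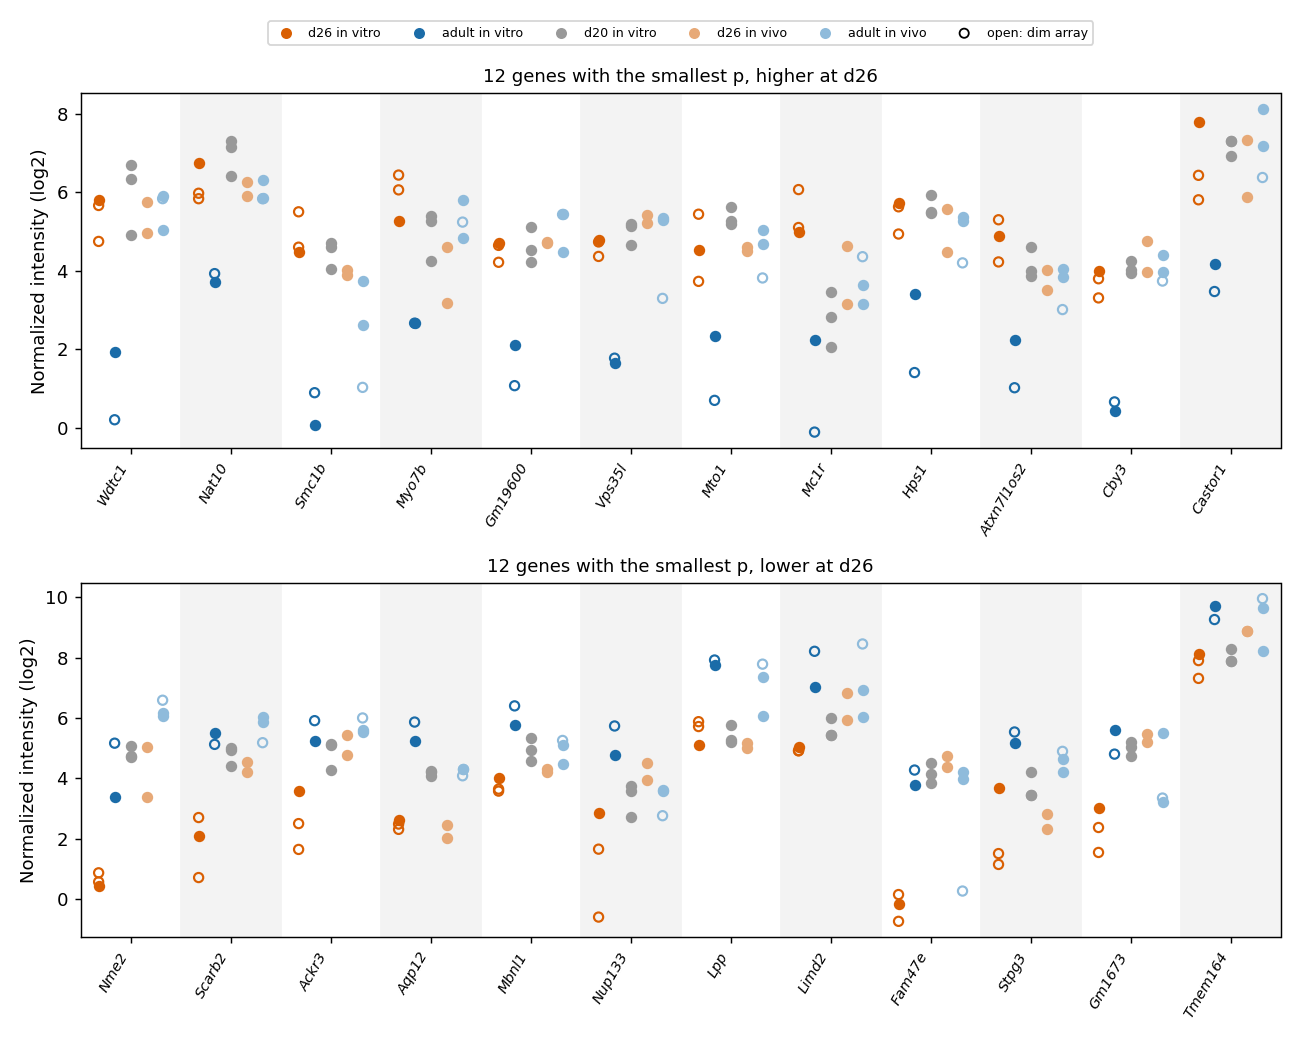
Normalized log2 intensity of the 12 genes with the smallest p in each direction, in d26 and adult in vitro arrays and, for comparison, d20 in vitro, d26 in vivo and adult in vivo arrays; each point is 1 array and open points are dim arrays. In the upper panel the dark blue adult in vitro points lie below nearly all others, and in the lower panel the d26 in vitro points do so for many genes; for Lpp the adult points of both kinds lie above those of d20 and d26.

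The same age contrast could be measured in oocytes matured in the animal, on separate arrays. There 0 of 22519 probe sets passed (0%), 836 had an unadjusted p below 0.05 and the smallest adjusted p was 0.390 by limma. Whether the age difference itself changed with the way of maturation was tested as an interaction: 0 passed (0%), 840 had an unadjusted p below 0.05 and the smallest adjusted p was 0.548. Without the first adult in vitro array 25 interaction calls appeared, and without the second d26 in vivo array 2 probe sets were called in vivo.

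The in vitro and in vivo age differences resembled each other in abundant messages only while the dim arrays were included. Across the probe sets with a level between 9 and 11 their correlation was r = 0.60, and at a level between 3.07 and 5 it was 0.06. Without the 4 dim arrays, 2 of them d26 in vitro, 1 adult in vitro and 1 adult in vivo, the same values were -0.16 and 0.01. Within the in vitro comparison, the difference between the bright arrays and that between the dim arrays had r = 0.42 at a level between 9 and 11 and 0.03 between 3.07 and 5. These correlations are across probe sets that share arrays and normalization, and are descriptive.

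**Figure D4:**
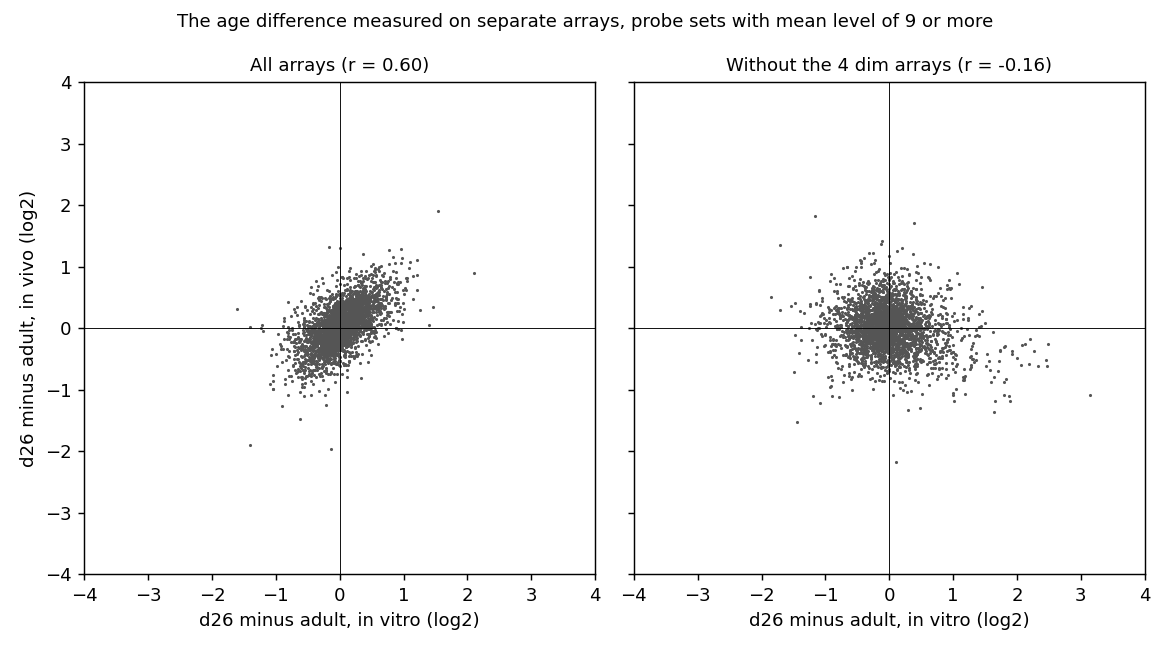
Age difference (d26 minus adult, log2) in vivo against in vitro for the 2978 probe sets with a mean level of 9 or more; each point is 1 probe set. With all arrays the points lie along the rising diagonal (left), and without the 4 dim arrays they do not (right).

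The 29 gene lists cover the functions of a maturing oocyte, and 0 members of any list passed the adjusted threshold. Counts of members without overlap between the ages are read against the 6.98% higher and 9.01% lower over all genes. Where every array of an age reads under 3.07, as the adult arrays do for Cd9, Smarcc1 and Hrk below, the size of the difference is not fixed. List medians ran from -0.28 to 0.29, against -0.02 over all genes. The lists are described by role below.

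No message for the egg surface or the maternal stores passed the test. Of 10 zona pellucida and sperm-binding surface genes, Zp3, a glycoprotein of the egg coat, differed by -0.23 ± 0.35 and Zp2 by -0.07 ± 0.45. Cd9, the tetraspanin needed for sperm-egg fusion, read 4.73, 4.29 and 3.62 at d26 and 1.57 and 1.67 in adults (difference 2.59, adjusted p = 0.466, limma). In vivo Cd9 differed by 1.68 ± 0.78, with overlap between the ages. Of 25 subcortical maternal complex and maternal effect genes the median difference was 0.00. Nlrp5 (Mater), which organizes that complex, read 10.87, 11.43 and 11.59 at d26 and 11.32 and 11.40 in adults. Ooep, its partner, read 8.81, 9.44 and 9.12 at d26 and 9.80 and 9.75 in adults, without overlap, a difference of -0.65 with a 95% interval from -1.16 to -0.14 (adjusted p = 0.592, limma); in vivo it was 0.09.

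Oocyte growth factor and transcription factor lists held no member with an unadjusted p below 0.05, in 16 and 14 genes tested. Bmp15, which acts with Gdf9, differed by 0.17 ± 0.43. Nobox, a homeobox regulator of oocyte genes, differed by -0.07 ± 0.55 and Lhx8, another, by -0.33 ± 0.41. The medians of these lists were 0.07 and 0.13.

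Among the genes of meiotic arrest and resumption, the spread between pools exceeded the age difference for the best known member. Mos, the kinase that starts the MAP kinase cascade and holds the egg at MII, read 10.99, 6.36 and 6.76 at d26 and 7.84 and 6.55 in adults, a difference of 0.84 ± 1.62. The high value is the bright d26 array. Map2k1, the kinase that Mos activates, differed by 0.31 ± 0.38. The 16 genes of the Mos, MAP kinase and MII arrest list had a median of 0.21, and none had an unadjusted p below 0.05. In the list of cAMP, cGMP and prophase arrest genes, also 16, Pde4d, a cAMP phosphodiesterase, read 4.40, 6.33 and 3.83 at d26 and 6.39 and 7.71 in adults (difference -2.19, adjusted p = 0.497, limma), and Gpr3, the receptor that keeps cAMP high, differed by 0.14 ± 0.95.

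Cell cycle messages showed no called age difference. Of 30 CDK1, cyclin and anaphase-promoting complex genes, 1 was higher without overlap and 5 lower, 3.33% and 16.7% against 6.98% and 9.01% over all genes. Ccne1, cyclin E1, read 8.30, 8.15 and 8.20 at d26 and 9.03 and 8.76 in adults (difference -0.68, adjusted p = 0.664, limma), and was lower in vivo by -0.56. Cdk1, the kinase of maturation promoting factor, read 3.79, 3.46 and 4.68 at d26 and 1.10 and 3.70 in adults, which overlap. Of 39 spindle checkpoint, cohesin and segregation genes, 19 had an interval within 1 log2 unit of 0, including Bub1b, a checkpoint kinase, at -0.05 ± 0.29 and Mad2l1, a checkpoint protein, at 0.18 ± 0.18. Of 37 spindle pole, microtubule and kinesin genes, Tpx2, a spindle assembly factor, read 10.28, 9.37 and 10.38 at d26 and 9.79 and 8.54 in adults (difference 0.85, adjusted p = 0.677, limma), and the list's median was -0.02.

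No regulator of stored RNA passed the test. Btg4, the adaptor that brings the deadenylase to maternal messages, differed by 0.20 ± 0.24, and Cnot7, a deadenylase subunit, read 13.36, 13.16 and 13.17 at d26 and 13.33 and 13.18 in adults, a difference of -0.02 ± 0.15. Papola, the nuclear poly(A) polymerase, read 9.83, 10.67 and 9.82 at d26 and 11.09 and 11.07 in adults, without overlap (difference -0.97, adjusted p = 0.535, limma), and differed in vivo by -0.09. In this list of 53 tested genes, 3 were higher and 8 lower without overlap (5.66% and 15.1%, against 6.98% and 9.01% over all genes). Of 21 dormant maternal mRNAs that are translated at maturation, 13 had an interval within 1 log2 unit of 0 and the median was 0.01; Plat, tissue plasminogen activator, differed by 0.19 ± 0.55. The 19 small RNA pathway genes had the lowest list median, -0.28, with 0 higher and 4 lower without overlap (0% and 21.1%, against 6.98% and 9.01% over all genes). Their median was -0.54 between the bright arrays and -0.46 between the dim arrays, and -0.04 in vivo; over all genes these medians were -0.04, -0.01 and 0.04. Ddx4 (Vasa), a germ cell RNA helicase, read 9.35, 9.58 and 8.91 at d26 and 9.97 and 10.25 in adults (difference -0.83, adjusted p = 0.616, limma), and Dicer1 differed by 0.06 ± 0.27.

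No gene of the chromatin and DNA repair lists passed the test. Dnmt1, the maintenance DNA methyltransferase, differed by -0.48 ± 0.31 and Dnmt3a, a de novo enzyme, by -0.49 ± 0.34; the 21 genes of DNA methylation and imprint protection had a median of -0.07. The 48 histone modifier and remodeller genes had a median of 0.12, at 0.27 between the bright arrays and 0.14 between the dim ones. Among them Smarcc1, a subunit of the BAF complex, read 4.31, 4.47 and 5.51 at d26 and 3.01 and 1.82 in adults (difference 2.35, adjusted p = 0.468, limma), against 0.14 in vivo. Of 51 DNA repair and recombination genes, Brca1 differed by 0.17 ± 0.26 and Brca2 by 0.20 ± 0.33, and the median was 0.01.

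No gene of the translation machinery passed the test. The 47 cytosolic ribosomal protein genes had a median of -0.26, with 3 higher and 6 lower without overlap (6.38% and 12.8%, against 6.98% and 9.01% over all genes); the in vivo median was -0.05. Rpl10a, a large-subunit protein, read 3.27, 0.95 and 4.33 at d26 and 5.78 and 5.44 in adults (difference -2.76, adjusted p = 0.354, limma), while Rpl11 differed by 0.64 ± 0.59. The 53 translation factors and their regulators had a median of 0.02; Eif3f, a subunit of initiation factor 3, read 5.40, 4.18 and 5.70 at d26 and 3.92 and 2.26 in adults (difference 2.00, adjusted p = 0.466, limma), against -0.34 in vivo. Ribosomal protein genes have many near-identical pseudogene copies, so probe sets may share signal among them.

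Among mitochondrial messages, the 78 respiratory chain and ATP synthase genes had a median of -0.19, at -0.40 between the bright arrays and -0.09 between the dim ones. Cox6a1, a cytochrome c oxidase subunit, read 9.31, 10.35 and 9.62 at d26 and 10.85 and 11.11 in adults, without overlap (difference -1.22, adjusted p = 0.400, limma), but 0.05 in vivo. Tomm20, an import receptor of the outer membrane, read 5.30, 5.05 and 3.82 at d26 and 6.07 and 7.11 in adults (difference -1.87, adjusted p = 0.392, limma), in a list of 45 mitochondrial biogenesis, dynamics and import genes with a median of -0.12. The 67 mitochondrial ribosomal protein genes had a median of -0.02, and Mrpl42 in it differed by 2.22 (adjusted p = 0.539, limma). No test of a list as a whole was made.

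Energy metabolism was measured in 29 pyruvate oxidation and TCA cycle genes, of which 2 were higher and 7 lower without overlap (6.90% and 24.1%, against 6.98% and 9.01% over all genes), while the median was 0.01. Cs, citrate synthase, differed by 0.11 ± 0.19, and Pdhb, a subunit of pyruvate dehydrogenase, by 0.41 ± 0.27. Slc16a1, a carrier of pyruvate and lactate, read 4.42, 0.64 and 3.54 at d26 and 4.86 and 5.67 in adults (difference -2.40, adjusted p = 0.608, limma). The 18 glycolysis and pentose phosphate genes had a median of -0.04, the 32 antioxidant and glutathione genes -0.01, and the 40 cholesterol and fatty acid genes -0.13; in the last, Hmgcs1, an early enzyme of sterol synthesis, differed by -0.13 ± 0.15.

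Protein turnover, stress and survival genes completed the lists. The 36 proteasome subunits had a median of 0.19; Psma5 read 8.78, 9.88 and 8.57 at d26 and 10.11 and 10.45 in adults, without overlap (difference -1.21, adjusted p = 0.468, limma), while Psma2 differed by 0.08 ± 0.18. The 28 ubiquitin E1 and E2 enzymes had a median of -0.04, the 39 heat shock and chaperone genes -0.06 and the 20 egg calcium signalling genes -0.03. Of 28 apoptosis regulators with a median of 0.16, Hrk, a pro-apoptotic BH3-only protein, read 5.55, 5.93 and 4.09 at d26 and 0.45 and 1.16 in adults, both under the tested level (difference 4.38, adjusted p = 0.319, limma). In vivo Hrk differed by 1.46 ± 1.06, with overlap between the ages. Bcl2l10, the abundant oocyte survival factor, read 13.80, 13.25 and 13.51 at d26 and 13.56 and 12.87 in adults, a difference of 0.30 ± 0.25.

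**Figure D5:**
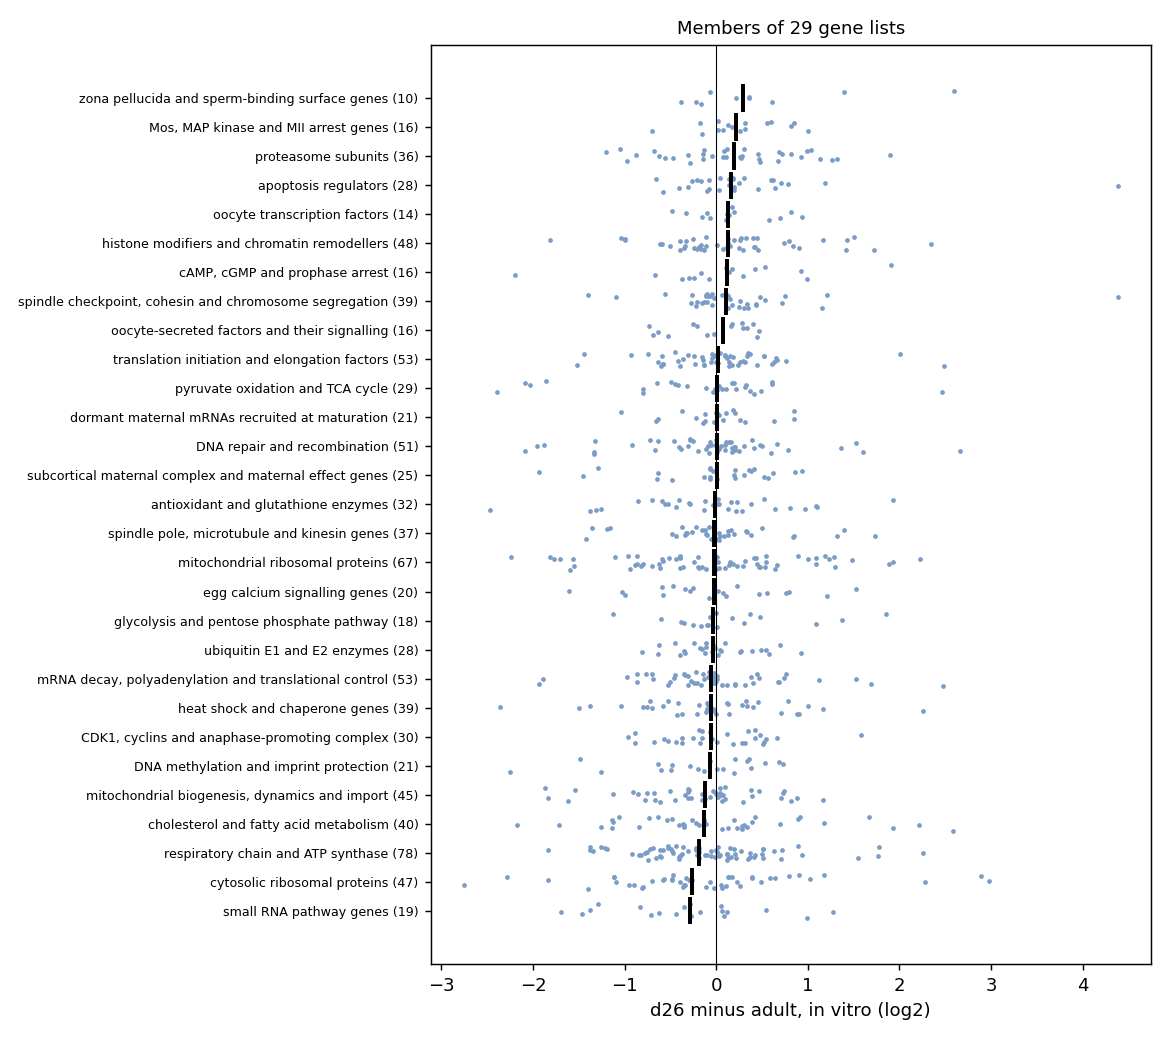
Difference d26 minus adult in vitro (log2) of the tested members of 29 gene lists; each point is 1 gene, the black bar is the list median and the number of genes tested follows the list's name. All medians lie between -0.28 and 0.29, and Smc1b and Hrk are the points near 4.38.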

How the data were processed

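The authors deposited 1 intensity for each of 45101 probe sets on every array. Per the submitters' processing notes these are MAS5 values; the software version, the target of any scaling and detection calls are not stated in the labels or headers. All intensities were positive. After removal of 64 control probe sets, log2 of the deposited values was quantile normalized over the 15 arrays. The 22519 probe sets in the upper 50% of mean (log2 level of at least 3.07) entered a linear model (limma 3.58.1, R 4.3.3; a mean for each of 6 groups, variance trend, 9 residual degrees of freedom), with Benjamini-Hochberg adjustment and calls below 0.05.

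Symbols came from the platform annotation: 34945 probe sets had 1, 932 several and 9160 none, and 34741 were updated through gene identifiers to RefSeq names. Named genes are those with an adjusted p below 0.05; where fewer than 6 passed in a direction, also those with the smallest p, a difference of at least 1 and no overlap, up to 12; the first 3 members of each list and its smallest-p member; and all oocyte markers. Not every gene so named is described. The members, lists and rules were chosen with earlier results of these data known. The number of arrays limits the precision. No array repeated another: pairs shared identical values in 0.00222% of probe sets or fewer. Replicate numbers follow record order and pair nothing. Alternatives covered scaling, filter, pseudocount, variance model, blocks and left-out arrays.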

Additional observations from a re-analysis of the deposited data

How the results depend on the processing

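The count of probe sets called higher at d26 (1) became 0 with values as deposited, normalization or fit on the 5 arrays alone, no filter, the upper 30%, the upper 50% over the 5 arrays, a pseudocount of 1.115, array weights or a block for title number. It was 1 with median scaling, 5 (and 1 lower) without the variance trend, 3 with a block for brightness, and 63 (and 26 lower) without the 4 dim arrays. Leaving out 1 array at a time gave 0 to 305 higher, 0 to 2 lower, 0 to 2 in vivo and 0 to 25 interaction calls. The upper ends came without the first adult in vitro array, or, in vivo, without the second d26 in vivo array. The cause was not tested. The brightness block, and leaving out arrays outside the 5, were chosen after seeing the data.

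Over 139 genes, 4253 values under alternatives gave 8 reversals, counting sign changes where the unadjusted p was below 0.05: Zfp36l2 at 0.0448 and Prkce at -0.0736 without the dim arrays (and in the bright arrays alone), and, as the median over probe sets, untested faint ones included, Limd2 at 1.10, Mbd1 at 0.588, Prkce at -1.11 and Cct6a at -0.232. Their main differences were -1.94, 1.53, -2.66, -2.25, 1.53 and 2.25. The 24 genes with the smallest p passed the threshold in 18 of 651 tested values, in 15 genes; their sign is no sign of stability, since genes were chosen for having no overlap between the ages. Faint signal limits all of these: under a level of 5 no interval lay within 1 log2 unit of 0.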
